A study of Mus musculus with 48 samples.

Results

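The cortical layer marker genes are a set of 9 genes whose transcripts are concentrated in particular layers of the mouse neocortex. They were taken as listed, by symbol, and 8 of them, namely Cux1, Cux2, Rorb, Fezf2, Bcl11b, Tshz2, Crym and Tbr1, were among the 15782 genes of the 4 Q3-normalized tables. The other gene of the list, Foxp2, was not analysed here. The values were obtained by GeoMx digital spatial profiling, in which photocleaved probe tags are counted in a chosen area of illumination (AOI) of a tissue section. Brain sections of 12 male C57BL/6 mice gave 48 AOIs, 1 a mouse in each of frontal cortex (FCT), cortex (CT), cornu Ammonis (CA) and dentate gyrus (DG). The mice were 10 weeks old, and each of the 4 groups held 3 mice. FLT-SAL mice flew for 35 days with saline. FLT-BuOE mice flew with MnTnBuOE-2-PyP5+ (BuOE), a manganese porphyrin that mimics superoxide dismutase, injected under the skin at 1 mg/kg from 7 days before launch and then weekly. GC-SAL and GC-BuOE mice stayed on the ground in flight hardware cages for the same time with the same injections, 3 days behind the flight schedule, and flight mice reached the laboratory within 20 hours of splashdown. AOIs were chosen on fixed left hemibrain sections stained for GFAP, Iba1 and nuclei, and held all cells inside their outline. Each group had its own slide, so a slide, the placement of AOIs on it and the group cannot be told apart.

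The neocortex is built of stacked layers of excitatory neurons that differ in their targets and in the transcription factors they keep into adult life. Cells of the upper layers mostly connect cortical areas with one another and receive thalamic input, while cells of the deep layers send axons to the thalamus, brainstem and spinal cord. Because each layer has its own markers, the balance of these genes in a small AOI depends on which layers lie inside it. Cux1 and Cux2, homeodomain factors, mark the upper layers, and Rorb, a nuclear receptor, marks layer 4. Fezf2 and Bcl11b (also known as Ctip2) specify and mark subcerebral projection neurons of layer 5, Tshz2 marks a set of near-projecting deep neurons, Crym encodes a thyroid hormone-binding crystallin with deep-layer expression, and Tbr1 is a T-box factor of layer 6 neurons that is also found at lower levels in the upper layers. Bcl11b is also strongly expressed by hippocampal pyramidal and granule cells.

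In GRCm38 (GENCODE), Cux1 lies at chr5:136248135-136567490 and Cux2 at chr5:121856366-122050102, both on the minus strand of the same chromosome. Rorb lies at chr19:18930605-19111196, Fezf2 at chr14:12342094-12348189, Bcl11b at chr12:107910403-108003602 and Crym at chr7:120186380-120202111, all on the minus strand. Tshz2 lies at chr2:169633013-170071816 and Tbr1 at chr2:61802930-61814114, both on the plus strand. A promoter window was matched by symbol for 7 of the 8 genes, and none was matched for Crym. The windows of Cux2 and Tshz2 are printed because these 2 genes moved furthest apart between the flight groups in FCT. They hold 250 bases before and 50 after a RefSeq start on GRCm38.p6, read 5′ to 3′, at chr5:122049802-122050101 on the minus strand for Cux2, which has 2 windows, and at chr2:169632259-169632558 on the plus strand for Tshz2. Capitals mark each CG dinucleotide, which reads the same on both strands.
Cux2: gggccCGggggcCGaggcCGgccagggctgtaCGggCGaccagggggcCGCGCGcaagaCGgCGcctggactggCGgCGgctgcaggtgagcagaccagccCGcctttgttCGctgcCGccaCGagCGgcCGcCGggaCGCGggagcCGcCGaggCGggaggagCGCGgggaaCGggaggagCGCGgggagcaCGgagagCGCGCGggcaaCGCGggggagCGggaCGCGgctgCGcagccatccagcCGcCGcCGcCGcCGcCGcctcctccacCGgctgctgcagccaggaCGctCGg
Tshz2: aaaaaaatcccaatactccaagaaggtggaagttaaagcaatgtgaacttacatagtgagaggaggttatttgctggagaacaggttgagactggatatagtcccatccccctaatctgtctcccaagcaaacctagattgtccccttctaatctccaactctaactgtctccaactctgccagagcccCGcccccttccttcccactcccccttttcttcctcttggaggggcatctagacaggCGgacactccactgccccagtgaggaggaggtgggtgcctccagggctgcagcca
The Cux2 window held 48 CG dinucleotides, a number reached by 1.22% of the 32851 windows of this length. The Tshz2 window held 2, and 85.9% of the windows held at least as many.

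AOIs were deep enough to count each member, but not far above background. Deduplicated counts per AOI ranged from 322629 to 1579380 and sequencing saturation from 81.7 to 96.2%, and in FCT every FLT-SAL AOI was deeper than every AOI of the other groups, while in CT the FLT-SAL totals of 988810 to 1440631 overlapped those of both ground groups and lay above the 545668 to 916917 of FLT-BuOE. All AOIs had been scaled to the same upper quartile, 40.0, and the negative probes, designed against no mouse gene, averaged between 12.1 and 18.0 in FCT and CT on that scale. Fezf2, Crym, Tbr1, Bcl11b and Cux1 were above 1.5 times that background in all 12 FCT AOIs, Cux2 in 11, and Rorb and Tshz2 in 8 each. In CT, Tshz2 passed this level in 5 of 12 AOIs. The raw counts behind a member in FCT and CT were between 9 and 188, so counting error alone is large for the lowest values. The regional labels were checked on dentate and CA1 markers. Prox1, a granule cell factor, was at 88.4 to 149 in DG and at 17.7 to 41.5 in the other regions, and Fibcd1, a CA1 gene, was at 55.4 to 112 in CA and at 9.78 to 42.2 elsewhere.

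Across regions, the deep-layer factors set cortex apart from hippocampus. Fezf2 was 1.15 ± 0.08 higher on the log2(value + 1) scale in the mean of FCT and CT than in the mean of CA and DG (SE, 12 mice; adjusted p = 2.6e-25, limma with the mouse as a random block and Benjamini-Hochberg adjustment over 15782 genes), and Tbr1 was 0.73 ± 0.07 higher (adjusted p = 4.4e-15). Bcl11b was 0.66 ± 0.07 lower in cortex, with a log2 difference of -0.66 (adjusted p = 1.5e-13). These 3 of the 8 members passed an adjusted p of 0.05 together with a 1.5-fold change, the call used throughout, and 3.19% of all genes did. Cux2 and Tshz2 passed the adjusted p at differences of 0.58 and 0.40, under the fold, and Cux1 (0.19), Crym (0.11) and Rorb (0.03) passed neither. Within the hippocampus, Crym was lower in DG than in CA (log2 difference -0.997 ± 0.108, adjusted p = 3.1e-13), the only member called in a comparison that called 4.1% of all genes. Crym values were 48.7 to 88.3 in CA and 23.9 to 44.0 in DG, so the 2 regions did not overlap on this scale. The negative-control mean was higher in CA, at 16.1 to 20.9, than in DG, at 9.24 to 13.5. Divided by it, Crym was 2.32 to 5.47 in CA and 1.95 to 3.85 in DG, with overlap. The differences between regions in this paragraph were fitted without subtracting this background.

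**Figure D1:**
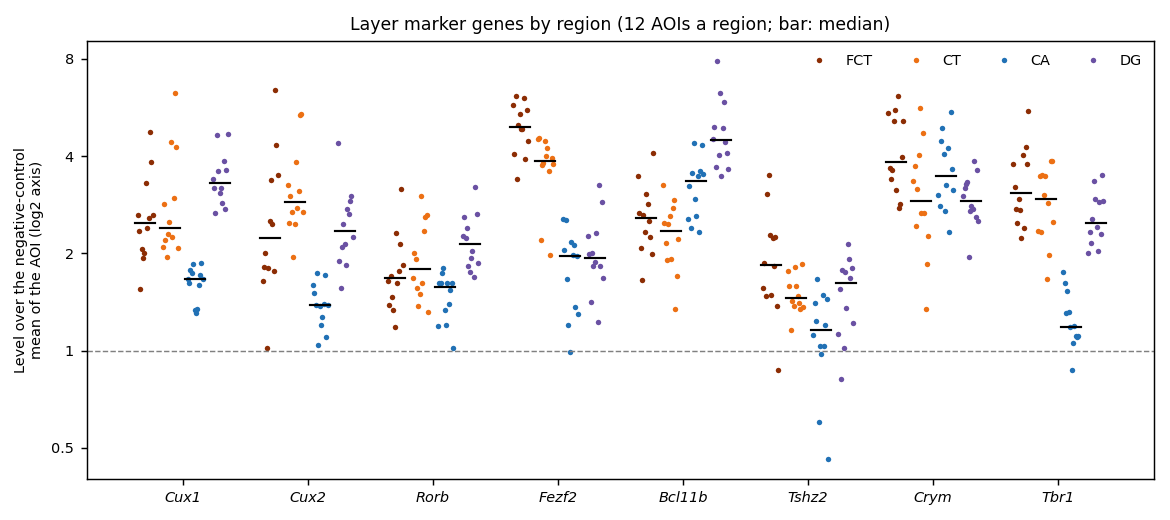
Level of each layer marker gene in the 12 AOIs of FCT, CT, CA and DG, divided by the negative-control mean of the same AOI, on a log2 axis; each point is 1 mouse, the bar is the median and the dashed line is the negative-control level. Fezf2 and Tbr1 were highest in the cortical AOIs and Bcl11b in the hippocampal ones, and Tshz2 and Rorb lay close to the background in many AOIs.

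No member was called between FCT and CT in a comparison that called 0.101% of all genes. Crym was 0.41 ± 0.11 higher in FCT (adjusted p = 0.0394, under the fold), Fezf2 0.36 ± 0.11 higher (adjusted p = 0.0982), and Cux2 differed by -0.41 ± 0.12, lower in FCT (adjusted p = 0.0739). Of a wider list of 38 layer genes, of which 34 were measured, Hs3st4, a heparan sulfate sulfotransferase, and Rprm, both markers of layer 6, were called higher in FCT than in CT, by 0.90 ± 0.11 and 0.61 ± 0.13 (adjusted p = 2e-09 and 0.0038). The median over the 11 measured genes of layers 6 and 6b was 0.38, and the medians of the 11 genes of layers 2 to 4 and the 12 genes of layer 5 were -0.16 and -0.11.

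Cux2 gave the widest spread of the upper-layer genes in FCT. Its Q3-normalized counts there were 18.3, 27.9 and 38.2 in the 3 FLT-SAL mice and 77.2, 56.0 and 45.0 in the 3 FLT-BuOE mice, with 21.1, 26.7 and 31.8 in GC-SAL and 44.3, 32.6 and 25.5 in GC-BuOE. Every FLT-BuOE mouse was above every mouse of the other groups. The log2 fold change of FLT-BuOE against FLT-SAL was 1.08 ± 0.23 (95% interval 0.62 to 1.54) and missed the call in limma (adjusted p = 0.0550), while edgeR's quasi-likelihood test on the counts called it at 1.07 (adjusted p = 0.00472) and DESeq2 did not at 1.11 (adjusted p = 0.0883). In CT the Cux2 values were 45.1, 30.5 and 32.8 in FLT-SAL and 77.5, 77.8 and 43.9 in FLT-BuOE, with 47.3, 33.7 and 48.4 in GC-SAL and 52.6, 38.7 and 46.2 in GC-BuOE. There, FLT-BuOE mice 1 and 2 stood above all others and mouse 3 lay inside the range of the remaining groups. The CT difference was 0.83 ± 0.20 (adjusted p = 0.0889, limma; adjusted p = 0.0253, edgeR; adjusted p = 0.333, DESeq2). An AOI holds many cells, and more upper-layer cells in it or more Cux2 RNA in each cell cannot be told apart.

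Cux1 had the same mice at the top. Its CT values were 90.4, 61.1 and 33.9 in FLT-BuOE, 32.7, 36.0 and 33.4 in FLT-SAL, 30.3, 38.8 and 35.4 in GC-SAL, and 60.6, 31.4 and 43.9 in GC-BuOE. FLT-BuOE mouse 3 was level with the saline mice. The difference of FLT-BuOE against FLT-SAL was 0.74 ± 0.22 in CT (adjusted p = 0.313, limma) and 0.49 ± 0.20 in FCT (adjusted p = 0.553), neither of them called. The CT difference passed the call at 1.11 without FLT-BuOE mouse 3 (adjusted p = 0.00873), and was 0.41 without FLT-BuOE mouse 1 (adjusted p = 0.999) and 1.91 with the distance of the AOI from the CA AOI as a covariate (adjusted p = 0.0892). Rorb, at 18.0 to 40.9 in FCT and 20.0 to 41.2 in CT, differed by 0.43 ± 0.23 in FCT and 0.46 ± 0.22 in CT (adjusted p = 0.688 and 0.838). The highest 2 CT values of Rorb in the flight groups were those of FLT-BuOE mice 1 and 2, 37.4 and 37.8, and GC-BuOE mouse 1 was higher still at 41.2.

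**Figure D2:**
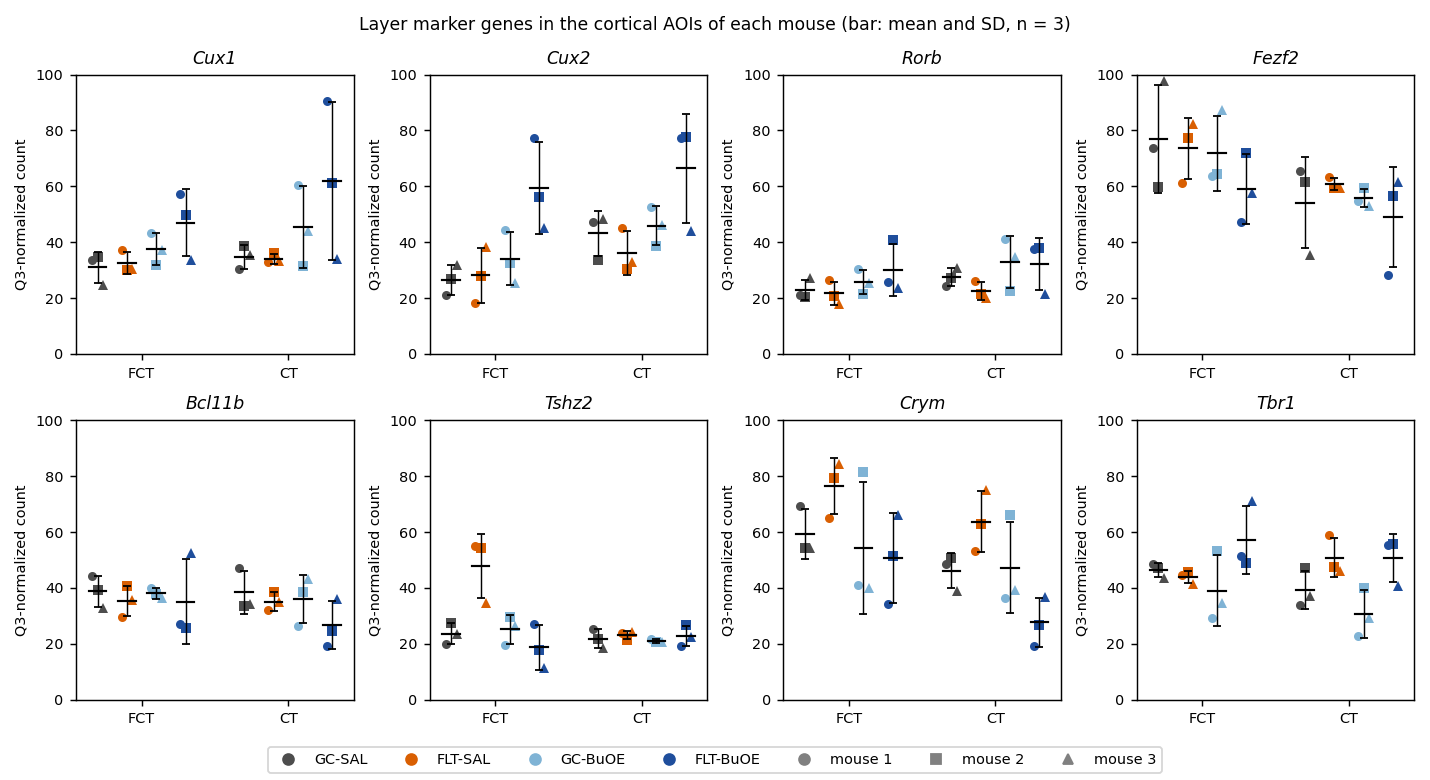
Q3-normalized counts of the 8 measured layer marker genes in FCT and CT, 1 point a mouse, shape for the mouse number within its group and colour for the group; bars give the mean and SD of 3 mice. Cux2 was highest in the FLT-BuOE mice in FCT (45.0 to 77.2), Tshz2 in the FLT-SAL mice in FCT (34.6 to 54.9) and Crym was lower in CT in the FLT-BuOE mice (19.4 to 36.9) than in the FLT-SAL mice, with overlap with GC-BuOE mouse 1 (36.6).

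Crym, among the deep-layer genes, was called in CT. Its values there were 53.1, 63.0 and 74.9 in FLT-SAL, 19.4, 26.7 and 36.9 in FLT-BuOE, 48.5, 50.8 and 39.1 in GC-SAL, and 36.6, 66.0 and 39.3 in GC-BuOE. All 3 FLT-BuOE mice were below all 3 FLT-SAL mice, and all FLT-SAL mice were above all GC-SAL mice. Crym was lower in FLT-BuOE than in FLT-SAL with a log2 fold change of -1.21 ± 0.20 (95% interval -1.62 to -0.80, adjusted p = 8.4e-04, limma). The call was lost without FLT-BuOE mouse 1, at -0.98 (adjusted p = 0.114), with the distance of the AOI from the CA AOI as a covariate, at -1.59 (adjusted p = 0.188), and without the mean-variance trend, at -1.21 (adjusted p = 0.10). Against GC-BuOE the FLT-BuOE difference was -0.75 ± 0.20 (adjusted p = 0.300), and FLT-SAL against GC-SAL gave 0.45 ± 0.20 (adjusted p = 0.894). In FCT, Crym was at 65.2, 79.3 and 84.5 in FLT-SAL and at 34.3, 51.6 and 66.3 in FLT-BuOE, a log2 difference of -0.62 ± 0.21 that did not pass (adjusted p = 0.420) and was -0.37 without FLT-BuOE mouse 1 (adjusted p = 0.736).

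Tshz2 was called in FCT only, of the 2 cortical regions, and the difference between regions was tested for the saline mice alone. Its FCT values were 54.9, 54.3 and 34.6 in FLT-SAL, 27.2, 17.8 and 11.3 in FLT-BuOE, 20.0, 27.5 and 23.5 in GC-SAL, and 19.5, 29.6 and 26.4 in GC-BuOE. The FLT-SAL mice stood above every mouse of the other groups, which overlapped one another. The raw counts were 96, 76 and 77 in FLT-SAL and 19, 20 and 9 in FLT-BuOE, and the lowest AOI, FLT-BuOE mouse 3, was at 0.873 times its negative-control mean. FLT-BuOE was lower than FLT-SAL with a log2 fold change of -1.36 ± 0.24 (95% interval -1.85 to -0.87, adjusted p = 0.0062, limma). The call did not hold without FLT-SAL mouse 1 (-1.25, adjusted p = 0.147), without FLT-SAL mouse 2 (-1.26, adjusted p = 0.171), in DESeq2 (-1.30, adjusted p = 0.0755) or without the mean-variance trend (-1.36, adjusted p = 0.11). FLT-SAL against GC-SAL, which uses the same FLT-SAL mice, gave 0.97 ± 0.24 (adjusted p = 0.157, limma), and was called by edgeR at 0.93 (adjusted p = 0.028) and when those 2 groups alone were fitted (adjusted p = 0.0236). In CT, Tshz2 lay between 18.6 and 26.7 in all 12 mice, at a median of 1.45 times the negative-control mean. The FLT-SAL against GC-SAL difference was larger in FCT than in CT by 0.88 ± 0.39 on the log2 scale, with an unadjusted p of 0.0275 (limma) and an adjusted p of 1.0000.

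The other deep-layer genes were not called in either cortical region. Fezf2 ranged from 47.2 to 97.7 in FCT and from 28.4 to 65.5 in CT, with differences of -0.33 ± 0.18 and -0.38 ± 0.20 for FLT-BuOE against FLT-SAL. Its lowest value in both regions was that of FLT-BuOE mouse 1. Bcl11b ranged from 25.8 to 52.5 in FCT and from 19.4 to 47.3 in CT, and the same comparison gave -0.07 ± 0.21 and -0.43 ± 0.21. Tbr1, a layer 6 gene, had its CT groups in another order than Crym. Its values there were 55.5, 55.6 and 40.8 in FLT-BuOE and 58.9, 47.5 and 46.2 in FLT-SAL. They were 34.0, 47.0 and 37.2 in GC-SAL and 22.9, 40.0 and 29.2 in GC-BuOE. FLT-BuOE against GC-BuOE gave 0.72 ± 0.19 in CT, which missed the adjusted threshold (adjusted p = 0.296, limma). In FCT that comparison gave 0.57 ± 0.19 (adjusted p = 0.511, limma). Against FLT-SAL, Tbr1 in FLT-BuOE differed by 0.36 ± 0.19 in FCT and by -0.01 ± 0.19 in CT.

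**Figure D3:**
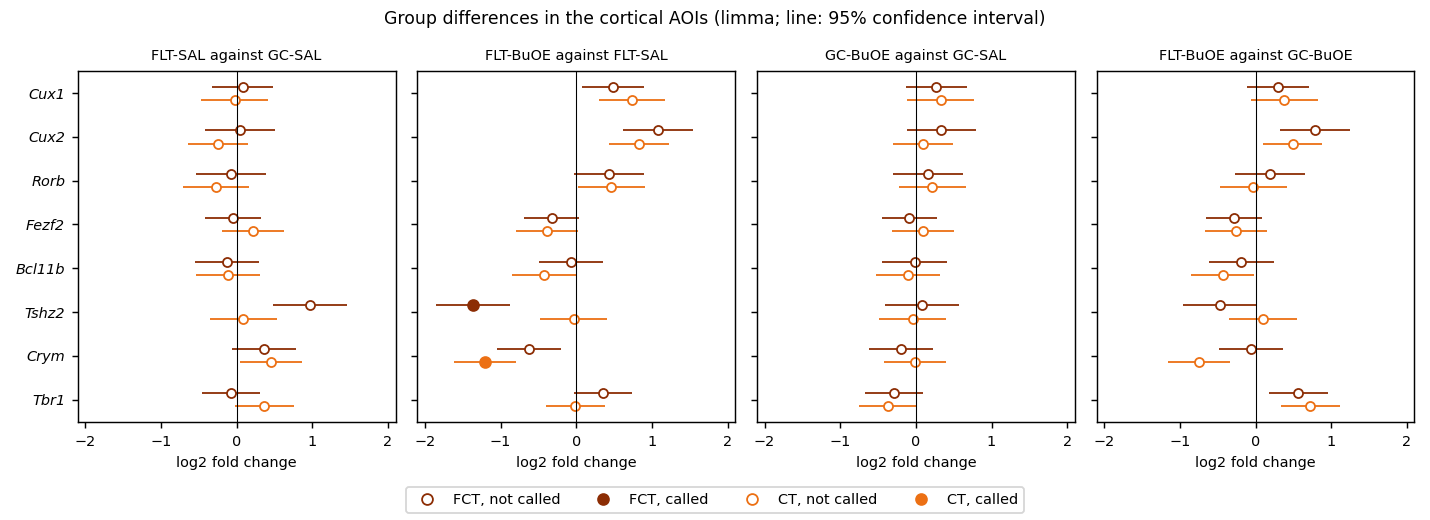
Log2 fold change of each layer marker gene for 4 comparisons of groups in FCT and CT, from the limma fit of the 12 AOIs of a region; lines are 95% confidence intervals and filled points passed an adjusted p of 0.05 and a 1.5-fold change. The filled points are Tshz2 in FCT (-1.36) and Crym in CT (-1.21), both for FLT-BuOE against FLT-SAL.

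Over all 8 members, FLT-BuOE against FLT-SAL held the only limma calls of the 4 comparisons of groups in FCT and CT. Of 16 tests, 8 in each cortical region, 2 were called by limma, 4 by edgeR (Cux2 and Tshz2 in FCT, Cux2 and Crym in CT) and 1 by DESeq2 (Crym in CT). The share of all genes called was 0.0317% in FCT and 0.0697% in CT. At an unadjusted p below 0.05 there were 9 of 16, namely 4 in FCT, where 7.65% of all genes reached it, and 5 in CT, where 5.73% did. The 5 higher ones were Cux1 and Cux2 in both regions and Rorb in CT, and the 4 lower ones were Crym in both regions, Tshz2 in FCT and Bcl11b in CT. The groups did not overlap for 3 members in FCT (Cux2 and Tbr1 higher, Tshz2 lower), where this held for 12.5% of all genes, and for 1 in CT (Crym), where it held for 11.4%. The median log2 change of the members was 0.14 in FCT and -0.02 in CT, beside -0.07 and -0.02 over all genes.

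FLT-SAL against GC-SAL called no member in FCT or CT by limma, with 2 of 16 at an unadjusted p below 0.05 (Tshz2 in FCT and Crym in CT), 1 called by edgeR (Tshz2 in FCT) and 0 by DESeq2. All genes were called at 0.0507% in FCT and 0.0887% in CT, and reached the unadjusted p at 5.66% and 5.27%. The groups did not overlap for Tshz2 in FCT and for Crym in CT, each higher in FLT-SAL, as for 12.1% and 10.4% of all genes. FLT-BuOE against GC-BuOE called none by any of the 3 tools, with 6 of 16 at an unadjusted p below 0.05 (2 in FCT and 4 in CT), where 7.17% and 6.65% of all genes reached it and 0.019% and 0.0127% were called. There the groups did not overlap for Cux2 in FCT and Tbr1 in CT, each higher in FLT-BuOE, as for 11% of all genes in either region. GC-BuOE against GC-SAL called none by any of the 3 tools and had 0 of 16 at an unadjusted p below 0.05, with 5.63% and 3.78% of all genes reaching that level and 0.00634% and 0% called. No member's groups were free of overlap there, against 10.8% and 8.2% of all genes. The interaction, the flight difference under BuOE minus that under saline, called none by any of the 3 tools and had 5 of 16 at an unadjusted p below 0.05, with 5.43% and 4.81% of all genes there and 0.00634% and 0.019% called. The furthest interactions were Tshz2 in FCT at -1.44 ± 0.34 (adjusted p = 0.512) and Crym in CT at -1.20 ± 0.29 (adjusted p = 0.259). Each was called once 1 FLT-BuOE mouse was left out, mouse 1 for Tshz2 (adjusted p = 0.0212) and mouse 3 for Crym (adjusted p = 0.0493).

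Within groups in CT, mice with more Cux2 or Rorb had less Crym, at unadjusted p-values that did not survive adjustment. Over the 12 mice, each centred on its group, Rorb and Crym had Pearson's r = -0.91 (p = 0.0031, exact permutation of mice within groups, two-sided, adjusted p = 0.173 over 56 pairs) and Spearman's rho = -0.87 (exact permutation p = 0.0077, adjusted p = 0.245), and r = -0.80 without the 2 mice farthest from the median of Rorb. Cux2 and Crym had r = -0.79 (exact permutation p = 0.0162, adjusted p = 0.225) and rho = -0.81 (exact permutation p = 0.0108, adjusted p = 0.245), and r = -0.73 without the 2 farthest mice. Cux2 and Rorb had r = 0.81 (exact permutation p = 0.0147, adjusted p = 0.225) and rho = 0.81 (exact permutation p = 0.0131, adjusted p = 0.245), and r = 0.80 without the 2 farthest. Of the 56 pairs in FCT and CT, 7 had an unadjusted exact permutation p below 0.05, all of them in CT, and 0 passed the adjustment. Of the 15 pairs of an upper-layer with a deep-layer gene in CT, 12 had a negative r, but the 3 pairs with Tbr1 lay between -0.02 and 0.06 and those with Tshz2 between -0.24 and 0.14. The genes of an AOI share its library and scaling. In log2 units, Cux2 minus Crym was 1.95, 1.51 and 0.24 in the CT AOIs of FLT-BuOE and -0.23, -1.02 and -1.17 in those of FLT-SAL, while GC-BuOE ran from -0.76 to 0.51 and GC-SAL from -0.58 to 0.30. In FCT it was 1.15, 0.12 and -0.55 in FLT-BuOE and -1.78, -1.48 and -1.12 in FLT-SAL. There, GC-SAL was at -1.68, -0.99 and -0.75, overlapping FLT-SAL, and GC-BuOE ran from -1.30 to 0.11. FLT-SAL and FLT-BuOE did not overlap in either region. This difference joins 2 genes whose opposite differences between these same mice are given above, so it adds no separate support.

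The mean log2 value of the 3 upper-layer genes minus that of the 5 measured deep-layer genes spread most within the BuOE groups. In CT it was 1.28, 0.66 and -0.24 in the FLT-BuOE mice, 0.72, -0.45 and 0.22 in GC-BuOE, -0.35, -0.29 and 0.22 in GC-SAL, and -0.35, -0.57 and -0.65 in FLT-SAL. In FCT it was 0.42, 0.33 and -0.40 in FLT-BuOE, 0.10, -0.81 and -0.49 in GC-BuOE, -0.90, -0.70 and -0.67 in GC-SAL, and -0.89, -1.12 and -0.87 in FLT-SAL. The SD over 3 mice in CT was 0.76 in FLT-BuOE and 0.59 in GC-BuOE, against 0.32 in GC-SAL and 0.16 in FLT-SAL. FLT-BuOE mouse 1 was the most upper-weighted AOI of both cortical regions. This mouse also had the lowest deduplicated count of the 12 AOIs in each region, 484300 in FCT and 545668 in CT. The part of depth in its values was not tested.

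**Figure D4:**
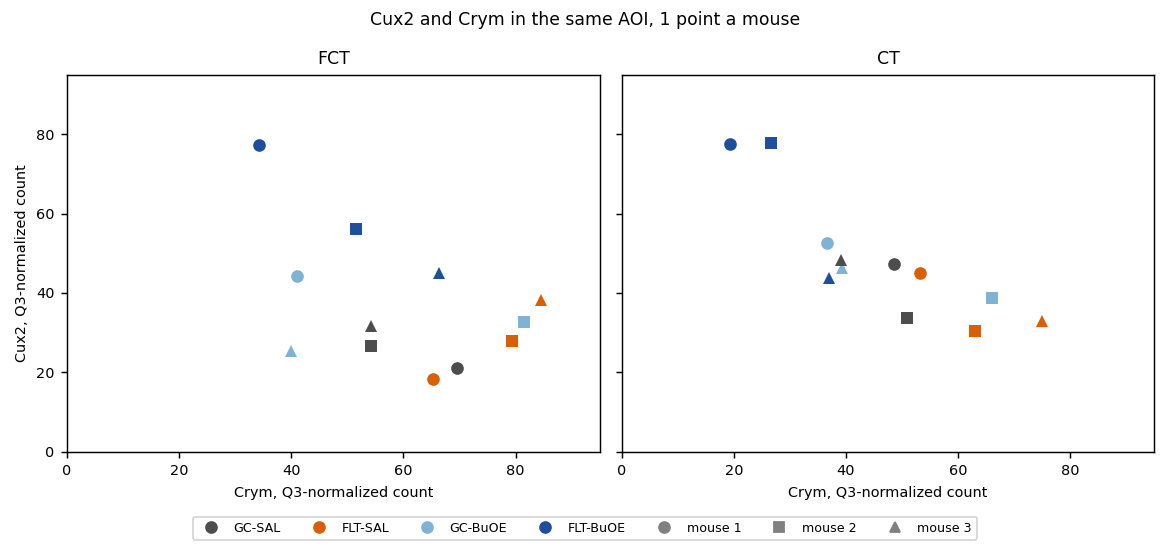
Cux2 (vertical axis) against Crym (horizontal axis) in the FCT and CT AOI of each mouse, both as Q3-normalized counts, with the colour for the group and the shape for the mouse number. In CT, FLT-BuOE mice 1 and 2 lie at high Cux2 (77.5 and 77.8) and low Crym (19.4 and 26.7). FLT-SAL mice 2 and 3 lie at low Cux2 (30.5 and 32.8) and high Crym (63.0 and 74.9). FLT-SAL mouse 1 lies between them (Cux2 45.1, Crym 53.1).

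The position of the AOIs differed between groups. Measured from the CA AOI of the same mouse in the coordinate units of the labels, whose physical size is not given in the sources used here, the horizontal offset of the FCT AOI was -2152 to -1221 in FLT-SAL and -5337 to -3253 in the other groups, without overlap. That of the CT AOI was 1704 to 2583 in FLT-BuOE and larger elsewhere, with GC-BuOE at 2959 to 3071, GC-SAL at 3037 to 3498 and FLT-SAL at 3466 to 4361. The vertical offset of the FCT AOI was -2980 to -1740 in FLT-SAL and -1296 to -958 in FLT-BuOE, without overlap. GC-SAL was at -1438 to -372 and GC-BuOE at -2196 to -774. In CT it was -798 to -290 in FLT-SAL and -1562 to -898 in FLT-BuOE, again without overlap. GC-SAL was at -1058 to -720 there and GC-BuOE at -1226 to -588. The relation of the members to the vertical offset alone was not tested. The CT distance was 2412 ± 531 in FLT-BuOE and 4024 ± 420 in FLT-SAL (SD, n = 3 each; exact permutation p = 0.10, two-sided, the smallest that 3 against 3 mice can give). The FCT distance averaged 2885 ± 627 for FLT-SAL mice and 4173 ± 534 for GC-SAL mice (exact permutation p = 0.20), and the CT distances of these 2 groups were 4024 ± 420 and 3398 ± 264 (exact permutation p = 0.20). The AOI area was 198761 in the FCT of every FLT-SAL mouse, above the 145393 to 173293 of the other groups. In CT it was 224546 in FLT-SAL, 144580 in FLT-BuOE, 208860 in GC-BuOE and 146259 to 244534 in GC-SAL. The CT AOI of GC-SAL mouse 1, with the area of 146259, held 140 nuclei, against 416 to 598 in the other CT AOIs.

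Within groups, no member followed this distance after adjustment. Of 16 relations, 8 in each cortical region over 12 mice centred on their group, 1 had an unadjusted exact permutation p below 0.05 and 0 an adjusted one. That relation was Fezf2 in FCT, with r = -0.67 (exact permutation p = 0.0370, adjusted p = 0.475), rho = -0.68 (exact permutation p = 0.0355, adjusted p = 0.562) and r = -0.68 without the 2 farthest mice. Crym and Cux2 in CT gave r = -0.25 and 0.21 (exact permutation p = 0.598 and 0.712), and both changed sign without the 2 farthest mice, to 0.37 and -0.41. With this distance as a covariate, the FLT-BuOE against FLT-SAL difference was 1.24 for Cux2 in FCT (adjusted p = 0.046, called), -1.45 for Tshz2 in FCT (adjusted p = 0.0201, called), 1.13 for Cux2 in CT (adjusted p = 0.47) and -1.59 for Crym in CT (adjusted p = 0.188). The distance is measured to the hippocampus and gives no depth below the brain surface, so the layers inside an AOI were not measured by it, and placement, slide and group cannot be told apart.

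**Figure D5:**
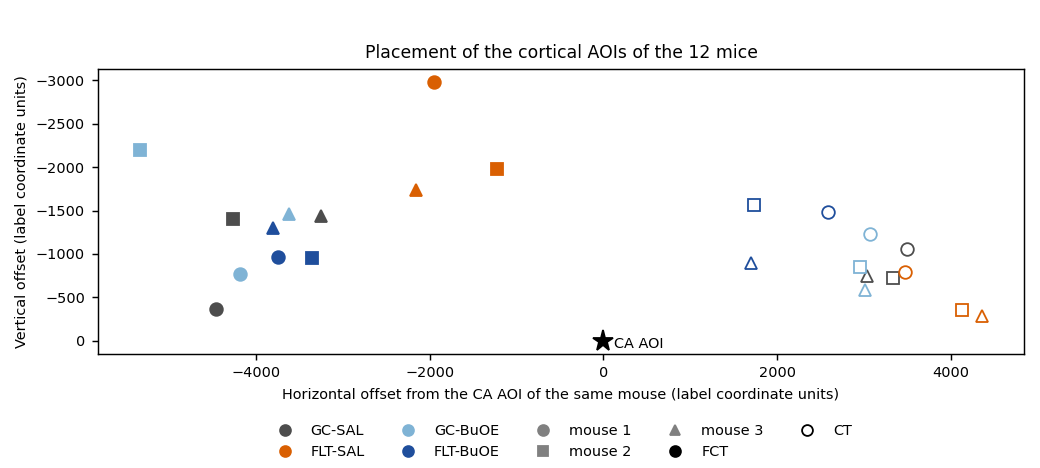
Horizontal and vertical offset of the FCT (filled) and CT (open) AOI of each mouse from the CA AOI of the same mouse (star), in the coordinate units of the labels; colour is the group and shape the mouse number. The FCT AOIs of FLT-SAL lie nearer to the CA AOI horizontally (-2152 to -1221) than those of the other groups, and the CT AOIs of FLT-BuOE lie nearest (1704 to 2583).

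Other layer genes gave 1 call in the comparisons of cortical groups. Kcnh5, a potassium channel gene listed for layers 2 to 4, was higher in the CT of FLT-BuOE than of FLT-SAL by 1.20 ± 0.20 on the log2 scale (adjusted p = 8.4e-04, limma). Its CT values were 104.6, 81.2 and 41.6 in FLT-BuOE, 32.7, 26.5 and 31.8 in FLT-SAL, 47.3, 52.7 and 60.5 in GC-SAL, and 59.5, 50.7 and 60.0 in GC-BuOE. As for Cux1 and Cux2, mice 1 and 2 of FLT-BuOE were the highest and mouse 3 was not. The FLT-SAL mice were below every mouse of the other groups, so the difference also rests on low FLT-SAL values. For this comparison in CT, 9 of the 11 measured genes of layers 2 to 4 were higher, 4 of them at an unadjusted p below 0.05, with a median of 0.44, and 8 of the 11 genes of layers 6 and 6b were lower, 2 at that level, with a median of -0.13. The 12 genes of layer 5 had a median of -0.08 with 1 higher and 1 lower at that level. The median over all genes was -0.02, and 5.73% of all genes reached that level. The 3 furthest of these after Kcnh5 were Hs3st4 at -0.82 ± 0.19 (adjusted p = 0.0889), Rasgrf2 at 0.68 ± 0.21 (adjusted p = 0.405) and Sulf2 at -0.61 ± 0.19 (adjusted p = 0.397). In FCT the same comparison had 5 of the 12 layer 5 genes lower and 1 higher at an unadjusted p below 0.05, 1 of the 11 of layers 2 to 4 lower, and 1 of the 11 of layers 6 and 6b lower, with none called. Of all genes, 7.65% reached that level. FLT-SAL against GC-SAL in FCT had all 11 genes of layers 6 and 6b lower, with a median of -0.18 and 2 at an unadjusted p below 0.05, beside a median of 0.03 over all genes and 5.66% of them at that level. Of layers 2 to 4, 8 of the 11 genes were higher, 3 of them at that level, with a median of 0.16. Of layer 5, 9 of the 12 were higher, with a median of 0.15 and 1 higher and 1 lower at that level. Etv1, listed for layer 5, was at 88.6, 87.9 and 83.2 in FLT-SAL and at 41.1, 56.5 and 51.8 in GC-SAL. These did not overlap, as for 12.1% of all genes. None of these layer genes was called. In CT the same comparison had 9 of the 11 genes of layers 6 and 6b higher, 2 of them at that level, with a median of 0.14. There, 9 of the 11 genes of layers 2 to 4 were lower, 1 of them at that level, with a median of -0.24, while 5.27% of all genes reached it. GC-BuOE against GC-SAL in FCT, which uses the same GC-SAL mice, had 9 of the 11 genes of layers 6 and 6b lower, 4 of them at that level, with a median of -0.25. Of layers 2 to 4, 8 of the 11 were higher there, 3 of them at that level, with a median of 0.31, while 5.63% of all genes reached it.

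Oligodendrocyte markers set FLT-SAL apart in CT, the group with the highest mean Crym there, and did not set FLT-BuOE apart from the ground groups. The sum of 5 markers (Mbp, Mobp, Mog, Mag and Cnp, genes of myelin) ran in CT from 854 to 1158 for FLT-SAL mice, 436 to 536 for FLT-BuOE, 471 to 494 for GC-SAL and 515 to 627 for GC-BuOE. All 5 were lower in FLT-BuOE than in FLT-SAL at an unadjusted p below 0.05 and 2 were called (Mobp and Mbp), and all 5 were higher in FLT-SAL than in GC-SAL at that level with 2 called (Mobp and Cnp), where 0.0634% of all genes were called higher. In FCT the sums ran from 730 to 1305 for FLT-SAL mice, 515 to 655 for FLT-BuOE, 576 to 674 for GC-SAL and 392 to 590 for GC-BuOE, with 0 of 5 called by limma and 4 of 5 lower in FLT-BuOE than in FLT-SAL at an unadjusted p below 0.05. For FLT-BuOE against FLT-SAL, 5.73% of all genes in CT and 7.65% in FCT reached that level, and 0.0507% were called lower in CT. For FLT-SAL against GC-SAL in CT, 5.27% reached it. Sums of 5 cortical excitatory neuron markers overlapped between FLT-SAL and FLT-BuOE in both regions, at 931 to 1094 and 986 to 1238 in CT. In FCT they were 580 to 939 and 876 to 1071, and FLT-BuOE lay above the 638 to 829 of GC-SAL. Sums of 3 measured striatal projection neuron markers overlapped in CT. In FCT they did not overlap between FLT-SAL (88.1 to 101) and FLT-BuOE (113 to 141). Sums of 5 measured markers of GABAergic interneurons did not overlap between them in CT, at 282 to 344 in FLT-SAL and 195 to 258 in FLT-BuOE, with all 5 lower, 2 at an unadjusted p below 0.05, 0 called by limma and a median of -0.35. In FCT all 5 were also lower, 1 at that level, with sums of 254 to 306 and 196 to 282 and a median of -0.25. No marker was at 0 in any AOI. The part of these shifts in the member results was not tested.

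In the hippocampus no member was called in 64 tests (2 regions and 4 comparisons of groups) by limma or DESeq2, 1 was called by edgeR and 4 reached an unadjusted p below 0.05. The share of all genes called there by limma ran from 0% to 0.266%. The share at an unadjusted p below 0.05 ran from 4.96% to 8.24%. The gene called by edgeR was Fezf2 in CA, at 49.3, 36.2 and 48.9 in GC-SAL, 28.3, 22.6 and 20.0 in FLT-SAL, 42.1, 37.4 and 44.3 in GC-BuOE, and 22.1, 34.1 and 24.4 in FLT-BuOE. Each flight mouse was below each ground mouse, with or without BuOE, and groups were free of overlap for 12.9% of all genes under saline and 11.3% under BuOE. FLT-SAL against GC-SAL gave a log2 fold change of -0.90 ± 0.24 (adjusted p = 0.109, limma; adjusted p = 0.0197, edgeR; adjusted p = 0.464, DESeq2), and FLT-BuOE against GC-BuOE gave -0.62 ± 0.24 (adjusted p = 0.518, limma). The negative-control mean in CA was 16.1 to 20.9, so that the flight values stood little above it. Bcl11b, a factor of pyramidal and granule cells, was at 60.0, 82.1 and 59.3 in the CA of FLT-SAL and at 49.3, 57.2 and 46.0 in GC-SAL, a difference of 0.38 ± 0.19 (adjusted p = 0.741). In DG it was at 48.4, 42.5 and 43.4 in FLT-BuOE and at 75.6, 49.4 and 71.5 in FLT-SAL, a log2 difference of -0.52 ± 0.18 (adjusted p = 0.549). Sums of 4 CA1 pyramidal cell markers in CA were 392 to 419 in FLT-SAL and 239 to 324 in GC-SAL. They were 290 to 346 in FLT-BuOE and 257 to 350 in GC-BuOE. Sums of 4 granule cell markers in DG were 319 to 354 in FLT-SAL and 236 to 283 in GC-SAL. They were 263 to 335 in FLT-BuOE and 268 to 281 in GC-BuOE. The part of these sums in the hippocampal member results was not tested.

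By Pearson's r over the 24 cortical AOIs, given as a description because these AOIs share groups, slides and mice, the genes most like each member were mostly not other layer markers. Among 13382 genes above background, Cux1 was most like Kcnh5 (r = 0.80) and Speer2 (0.79), and Cux2 most like Camk2n1 (0.85), Gpr158 (0.84) and Nrgn (0.79), the last of which encodes neurogranin of the postsynapse. Rorb was most like Plxnd1 (0.77), Cux1 (0.74) and Jdp2 (0.70), and is the only member with another member among its 3 most like genes. Fezf2 was most like Sstr4 (0.79), a somatostatin receptor, Crym most like Sez6 (0.78), Bcl11b most like Ccl27b (0.74), Tbr1 most like Dbp (0.75), a clock output factor, and Tshz2 most like Trim59 (0.73).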

How the data were processed

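The authors counted probe tags with the GeoMx NGS Pipeline and deposited a count per probe and AOI without normalization. They then divided each AOI by its upper quartile and deposited this Q3-normalized signal for 15782 genes in 1 table a region. Deposited fold changes and p-values were not used. Undoing the scaling gave whole counts for 99.98% of values (within 0.02), and 15777 genes matched exactly 1 probe. Each region was fitted with limma 3.58.1 (R 4.3.3) on log2(Q3-normalized count + 1), with 12 AOIs, the group as factor and a trended prior variance, and p-values were adjusted over all genes by the Benjamini-Hochberg method. Regions were compared over 48 AOIs with the mouse as a random block (consensus correlation 0.03). edgeR 4.0.16 and DESeq2 1.42.0 on counts were alternatives. Interactions needed no fold threshold. Fits were also run on simulated counts with planted changes, a common dispersion and no mouse, slide or placement effect. That run cannot speak to such effects. Permutation tests used SciPy 1.17.1, and within-group permutations had 1296 arrangements. Fold changes of low genes are understated by the pseudocount and by background. Members and lists were chosen with earlier results of these data known. The text names all members, wider-list genes that were called or stood furthest, and the genes most like each member. A further marker of the lists and 1 of the most like genes are not reported here.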

Additional observations from a re-analysis of the deposited data

How the results depend on the processing

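All 27 single member results with an unadjusted p below 0.01 kept their direction under 515 alternative values, of which 26 passed the call where the reported value did not and 7 lost it. Calls of members in FCT and CT for FLT-BuOE against FLT-SAL were 2 as reported, 4 with edgeR, 1 with DESeq2 and 0 without the mean-variance trend, and 1 to 5 when 1 mouse was left out, with 1 without FLT-SAL mouse 2 or FLT-BuOE mouse 1 and 5 without FLT-BuOE mouse 3 (Cux1, Cux2 and Crym in CT, Cux2 and Tshz2 in FCT). With the replicate number as a block the count was 4 (Cux2 and Tshz2 in FCT, Cux2 and Crym in CT), and the block changed no other count by over 1.5 times. Whether the numbers pair mice was not settled. Deviations of same-numbered mice correlated only at -0.18 to 0.10 over 16 comparisons. Yet the same number was the best match for all 3 mice in GC-BuOE against GC-SAL in FCT and CT. It was the best match for 0 of 3 in FLT-SAL against GC-SAL in both regions. For FLT-SAL against GC-SAL the count rose from 0 to 1 (Tshz2) with edgeR and with those groups alone in the fit, and was 0 to 1 when 1 mouse was left out. The interaction count was 0 to 1 when 1 mouse was left out. The CA and DG count was 1 with edgeR. Without the fold threshold, 1 member was called between FCT and CT, 5 between cortex and hippocampus and 4 between DG and CA. Without centring on groups, 7 pairs of members passed the adjustment instead of 0. The cause of these differences was not tested. With 3 mice a group and raw counts of 9 to 188, small differences in single genes were not detectable.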
